A study of Arabidopsis thaliana with 47 samples.

Results

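The 200 genes described here were nuclear genes of Arabidopsis thaliana whose transcripts stood higher in mesophyll protoplasts after 2 days of culture than in freshly isolated protoplasts and than in protoplasts after 6 days. They were chosen by those very values. The mean level at Day 2 had to be at least 20 CPM (counts scaled so that each library sums to 1000000), which 7694 of 27988 nuclear loci passed. The log2 ratios of the Day 2 mean over the Day 0 mean and over the Day 6 control mean, each with 1 CPM added, were taken in replicates 4 to 8, and the 200 loci with the highest smaller ratio were kept. The Day 0, Day 2 and Day 6 control levels of these libraries are therefore given as a description with no test. All 200 were measured in every library. The edgeR filter on low counts kept 200 in replicates 4 to 8 and in replicates 9 to 11, and 198 in replicates 1 to 3.

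All libraries came from accession Columbia-0, with no transgene or mutation named in the labels. Protoplasts were taken from rosette leaves of plants 23 days after sowing, embedded in alginate gels and cultured in the dark in a medium with the synthetic auxin 2,4-D and the synthetic cytokinin thidiazuron, so every cultured control had both hormones. In replicates 4 to 8, 26 libraries covered Day 0 (n = 5), Day 2 control, Day 4 yucasin, Day 4 MB-3, Day 4 control, Day 6 yucasin, Day 6 MB-3 and Day 6 control (n = 3 each). Yucasin is an inhibitor of auxin biosynthesis and MB-3 an inhibitor of histone acetyltransferases, and each was added alone to the complete medium. Replicates 9 to 11 covered Day 0, Day 4 without 2,4-D and Day 4 control (n = 3 each), and replicates 1 to 3 covered Day 0, Day 14 MB-3, Day 14 control and intact leaf (n = 3 each). Day 2 and Day 4 used replicates 4 to 6 and Day 6 used replicates 6 to 8, so only replicate 6 was measured at all 4 times. RNA was taken in bulk, from leaves, pelleted fresh protoplasts or the protoplasts released from pooled gels, so fewer cells of a type and less RNA per cell cannot be told apart. P-values measure the spread between these libraries.

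As background, plant cells perceive microbial molecules and fragments of their own wall through receptor-like kinases at the plasma membrane. These relay through protein kinases to WRKY transcription factors, which bind the W-box, and the genes induced include peroxidases, chitinases, enzymes of the indole phytoalexin camalexin and makers of salicylate and ethylene. The same pathway has been studied widely in mesophyll protoplasts, which are made by digesting the leaf wall with enzymes. A freshly made protoplast then builds a new wall, takes up ions and sugars from the medium and, with auxin and cytokinin, may re-enter the cell cycle.

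Mapped reads ranged over 4338234 to 19132178 a library, with 5066141 to 14007456 in replicates 4 to 8. Mesophyll markers (5 genes of light harvesting and carbon fixation) summed to 563.8 to 779.4 CPM at Day 2, against 723.9 to 2099 CPM at Day 0 of replicates 4 to 8 and 12270 to 29200 CPM in leaf. Markers of epidermis (3 genes) summed to 2.06 to 3.73 CPM and markers of phloem and bundle sheath (3 genes) to 1.26 to 2.81 CPM at Day 2, against 165 to 259 CPM and 390.0 to 541 CPM in leaf. At Day 0 of replicates 4 to 8 they summed to 0.22 to 0.474 CPM and 0.853 to 0.956 CPM. Guard cell markers (3 genes) summed to 10.5 to 14.9 CPM at Day 2, against 0.522 to 1.18 CPM at that Day 0. None of these markers was a member, and their part in the members' levels was not tested. In replicates 1 to 3 some libraries held reads at 2176 loci that were at 0 in every library of replicates 4 to 11. The share of those loci detected reached 78.6% in leaf replicate 2 and 83.2% in Day 14 control replicate 3, but was 0.7% in Day 0 replicate 2, so low values in replicates 1 to 3 carry that background. The library without 2,4-D of replicate 9 stood apart from replicates 10 and 11, as given below.

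By the names RefSeq gives them, the members fell into recognisable groups. Cell wall and secreted proteins were 25 members, membrane transporters and channels 23, receptor-like kinases and receptor-like proteins 22, transcription factors 12, proteins of immune signalling and salicylate 11, cytochromes P450 and detoxifying enzymes outside the indole pathway 9, and enzymes of indole, camalexin and glucosinolate metabolism 8. Clock and light-regulated genes were 7, hormone genes 4, copies of mitochondrial sequence 16, and 63 had another role or none. Cytochromes P450 made up 5.5% of the members, 11 genes, against 0.6% of the 7694 eligible loci, which held 50. Peroxidases made up 2.0% against 0.3%, protein kinases and receptors 11.5% against 6.5%, and transporters 7.0% against 3.2%. No ribosomal protein gene was a member, although 264 were eligible. Of shorter lists, 0 of 14 eligible small heat shock and heat stress genes were members. So were 0 of 11 eligible endoplasmic reticulum stress genes and 0 of 10 eligible jasmonate genes. Of the study's list of cell wall biosynthesis 0 of 34 eligible genes were members, and 0 of 14 eligible lignin and phenylpropanoid genes. With 200 of 7694 eligible loci chosen, lists this short could hold none at the share of all loci.

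Several members were neighbours on their chromosomes. Leaving out the mitochondrial copies, 43 of 184 members lay in 17 runs in which members were at most 20 kb apart. Among them were the wall-associated kinase genes WAKL6 (AT1G16110), WAKL2 (AT1G16130) and WAKL4 (AT1G16150), the cysteine-rich receptor kinase genes EMB1290 (AT4G23250), CRK20 (AT4G23280), CRK21 (AT4G23290) and CRK22 (AT4G23300), and the leucine-rich repeat kinase genes AT1G51830, AT1G51850 and AT1G51890. The lipid-transfer genes AZI1 (AT4G12470), EARLI1 (AT4G12480) and AT4G12500 formed another run, as did the camalexin genes CYP71A12 (AT2G30750) and CYP71A13 (AT2G30770). For 12 members at least 50% of 50-base windows occur in another nuclear gene, among them PRR9 (AT2G46790) with AT2G46670, AT5G23240 with AT5G23235, and LECRKA4.1 (AT5G01540). Their counts are uncertain, because the sources used here do not say how reads that match several places were counted.

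The members' promoters held the core of the W-box more often than other promoters did. In windows from 250 bases before to 50 bases after the annotated start, TTGAC on either strand was found in 70.1% of members (136 of 194 members with an annotated window), against 53.7% of 7631 eligible loci and 49.8% of 33054 nuclear genes. At least 2 cores were found in 36.6% of members, against 20.2% of eligible loci and 17.0% of nuclear genes. The site II element TGGGCC, known from promoters of ribosomal protein genes, was found in 4.6%, against 21.8% and 14.2%, and the mitosis-specific activator core AACGG in 14.9%, against 26.2% and 24.5%. The as-1 core TGACGT, which overlaps the W-box core where TTGACGT occurs, was found in 12.9%, against 10.8% and 8.7%. The G-box CACGTG was found in 6.2%, against 10.3% and 7.1%, but in 3 of the 7 clock and light genes. These shares are descriptions and a match is not a bound site. The 250 bases before the start are printed below 5′ to 3′ for members with several motifs, from the RefSeq assembly TAIR10.1, as examples of W-box cores before genes of several roles and of G-boxes before clock genes. They were picked for their motifs. By role, a core was found in 20 of 25 wall and secreted genes, 9 of 12 transcription factors, 7 of 11 immune genes and 13 of 22 receptor kinases and receptor-like proteins. At least 2 cores were found in 9, 7, 2 and 8 of these, in the same order. Capitals mark W-box cores (TTGAC or its reverse complement) in the first 5 sequences and G-boxes in the last pair. Among these, FRK1, WRKY29, PRR9 and AT3G12320 were chosen after their values had been seen.
AT5G48430, chr5:19629168-19629417, minus strand: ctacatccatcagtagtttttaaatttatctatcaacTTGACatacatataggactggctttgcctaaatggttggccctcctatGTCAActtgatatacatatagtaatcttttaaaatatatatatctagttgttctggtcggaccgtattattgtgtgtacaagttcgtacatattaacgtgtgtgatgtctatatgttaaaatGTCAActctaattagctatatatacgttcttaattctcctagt
AT1G51850, chr1:19256928-19257177, minus strand: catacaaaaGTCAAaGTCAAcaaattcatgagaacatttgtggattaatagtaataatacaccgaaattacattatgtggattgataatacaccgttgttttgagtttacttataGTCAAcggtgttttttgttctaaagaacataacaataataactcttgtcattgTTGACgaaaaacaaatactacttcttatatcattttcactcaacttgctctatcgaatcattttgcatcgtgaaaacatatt
FRK1 AT2G19190, chr2:8329945-8330194, minus strand: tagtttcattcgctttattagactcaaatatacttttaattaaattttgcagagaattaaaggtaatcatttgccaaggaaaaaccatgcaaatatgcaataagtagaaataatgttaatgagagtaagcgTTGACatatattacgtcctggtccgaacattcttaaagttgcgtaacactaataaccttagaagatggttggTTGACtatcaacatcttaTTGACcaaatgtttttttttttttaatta
WRKY29 AT4G23550, chr4:12291382-12291631, plus strand: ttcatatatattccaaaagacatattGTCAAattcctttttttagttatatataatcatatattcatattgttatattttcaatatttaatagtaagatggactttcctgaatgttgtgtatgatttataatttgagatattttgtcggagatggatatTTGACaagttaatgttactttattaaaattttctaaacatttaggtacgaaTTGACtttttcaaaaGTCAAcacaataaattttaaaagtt
AT5G64120, chr5:25661008-25661257, minus strand: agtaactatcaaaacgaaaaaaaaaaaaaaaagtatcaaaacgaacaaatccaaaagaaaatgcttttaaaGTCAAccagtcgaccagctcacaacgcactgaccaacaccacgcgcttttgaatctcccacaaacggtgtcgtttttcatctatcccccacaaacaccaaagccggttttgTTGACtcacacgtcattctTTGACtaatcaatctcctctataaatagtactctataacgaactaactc
PRR9 AT2G46790, chr2:19232357-19232606, plus strand: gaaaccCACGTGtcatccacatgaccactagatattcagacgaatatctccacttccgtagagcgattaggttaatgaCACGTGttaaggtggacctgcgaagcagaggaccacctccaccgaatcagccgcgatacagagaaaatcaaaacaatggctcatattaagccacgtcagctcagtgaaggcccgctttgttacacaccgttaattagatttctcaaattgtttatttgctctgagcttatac
AT3G12320, chr3:3923265-3923514, plus strand: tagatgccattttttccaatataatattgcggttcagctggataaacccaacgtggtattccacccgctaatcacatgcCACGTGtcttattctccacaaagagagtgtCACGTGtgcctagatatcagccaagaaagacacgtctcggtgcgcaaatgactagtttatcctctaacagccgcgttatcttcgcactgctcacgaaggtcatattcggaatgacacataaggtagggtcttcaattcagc

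**Figure D1:**
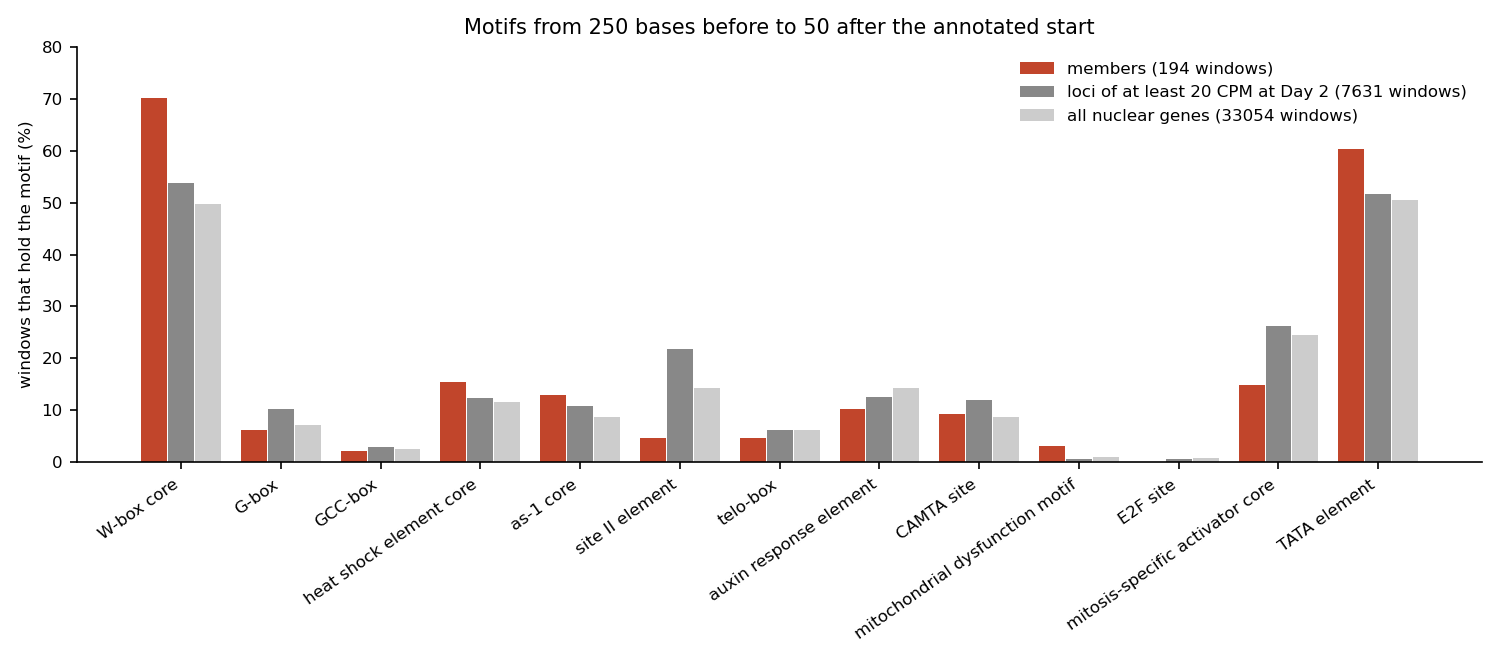
Share of promoter windows that hold each motif (%, vertical axis from 0) in members, in eligible loci and in all nuclear genes, with the motifs along the horizontal axis. The W-box core stands at 70.1% in members and 53.7% in eligible loci, and the site II element at 4.6% and 21.8%.

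The 16 members on chromosome 2 between bases 3247003 and 3439161 lie in the nuclear insertion of mitochondrial DNA near the centromere. At least 50% of their 50-base windows occur in the mitochondrial genome. Identity with the mitochondrial genome was at least 99% in 14 of them and 100% in 5, over genes that include atp9, atp1, atp8, nad1, nad2, nad4 and mttB. The following stretches of 120 bases are printed to show how alike the places are. AT2G07671, over atp9, has 0 differences, so a read from this stretch cannot be told from a mitochondrial one. AT2G07698, over atp1, has 1, marked by a capital, and within it only a read over that base can be told apart. AT2G07749 and AT2G07798 were less alike, at 92.19% and 91.96% identity. Positions are those of TAIR10.1 in RefSeq.
AT2G07671, chr2:3251994-3252113, minus strand: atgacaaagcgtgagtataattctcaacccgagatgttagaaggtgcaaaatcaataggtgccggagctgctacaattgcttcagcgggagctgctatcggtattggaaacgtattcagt
mitochondrial genome beside AT2G07671, bases 271099 to 271218, minus strand: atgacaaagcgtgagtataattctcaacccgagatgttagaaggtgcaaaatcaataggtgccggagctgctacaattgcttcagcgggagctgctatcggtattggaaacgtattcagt
AT2G07698, chr2:3361868-3361987, plus strand: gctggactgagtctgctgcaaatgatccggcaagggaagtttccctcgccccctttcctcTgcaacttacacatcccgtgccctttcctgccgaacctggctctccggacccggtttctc
mitochondrial genome beside AT2G07698, bases 69139 to 69258, minus strand: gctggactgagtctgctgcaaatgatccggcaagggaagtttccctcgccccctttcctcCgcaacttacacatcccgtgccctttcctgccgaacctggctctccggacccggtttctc

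Over the culture the members' median level of group means was 6.48 CPM at Day 0, 73.9 CPM at Day 2, 28.2 CPM in the Day 4 control and 11.5 CPM in the Day 6 control. The Day 2 means ranged over 20.7 to 8085 CPM. Every Day 2 library lay above every Day 0 library in all 200 members and above every Day 6 control library in 198, which the choice of members largely fixes. The median of the log2 ratios that ranked them was 3.20 for Day 2 over Day 0 and 2.30 for Day 2 over Day 6, and the Day 6 side was the smaller, and so the deciding one, in 134 members. The members of rank 198, 199 and 200, AT5G65207, UPI (AT5G43580) and AT1G49900, had smaller ratios of 1.60, and the loci of rank 201, 202 and 203, AT4G16260, AT2G07777 and AT5G41740, had 1.59. With trimmed-mean (TMM) scaling, which compares libraries by the bulk of their genes, the median log2 change was 2.62 for Day 2 over Day 0, against 0.22 over all loci.

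The Day 4 controls were not used in the choice, but the Day 2 and Day 6 libraries set beside them were. The Day 4 mean lay between the Day 2 and Day 6 means in 190 members, below the Day 6 mean in 3 and above the Day 2 mean in 7. These 7 were CYP79B2 (AT4G39950) and CYP71A13, which act in a row on the way from tryptophan to camalexin, with AKN2 (AT4G39940), EARLI1, YLS5 (AT2G38860), KAT3 (AT4G32650) and the chitinase gene AT4G01700. On the TMM scale the Day 4 control stood below Day 2 in 196 members, with a median log2 difference of -1.48 against -0.03 over all loci. Members chosen for high Day 2 levels tend to stand lower in any other group, so the choice fixes part of this difference. In replicate 6, the culture measured at every time, 199 of 200 members were highest at Day 2. The rule used the Day 0, Day 2 and Day 6 libraries of this replicate, so the choice largely fixes this count. The 3 Day 2 libraries did not have equal levels. The highest stood a median of 1.85 times above the lowest and over 3 times above it in 33 members, with replicate 5 lowest in 104 members but highest in 15 of the 16 copies. The epithiospecifier modifier ESM1 (AT3G14210) was an example of a member high in 1 library, with 23.1, 11.5 and 205 CPM at Day 2 in replicates 4, 5 and 6.

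The member of first rank, AT5G48430, encodes a secreted aspartyl protease. It had 0.737, 0.314, 1.04, 0.439 and 0.174 CPM at Day 0, 98.2, 33.2 and 91.4 CPM at Day 2, 4.51, 6.07 and 6.13 CPM in the Day 4 control and 0.688, 3.12 and 0.785 CPM in the Day 6 control. The course was sharpest for such genes, which were nearly silent before and after. The potassium uptake transporter gene HAK5 (AT4G13420) had 0.737, 0.392, 0.853, 0.878 and 1.13 CPM at Day 0, 350.4, 225 and 391 CPM at Day 2, 46.5, 54.9 and 28.1 CPM in the Day 4 control and 9.53, 12.3 and 9.82 CPM in the Day 6 control. SULTR1;2 (AT1G78000), a sulfate uptake transporter, had 9.58, 20.7, 56.7, 35.6 and 25.0 CPM at Day 0, 405, 354 and 286 CPM at Day 2, 102, 77.4 and 59.2 CPM in the Day 4 control and 23.0, 33.9 and 28.5 CPM in the Day 6 control. In both transporters the Day 2 libraries overlapped no other group of the controls.

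Among receptor kinases, AT1G51830 had 0.147, 0, 0.0947, 0.146 and 0.0870 CPM at Day 0, 122, 123 and 92.3 CPM at Day 2, 8.40, 8.27 and 6.90 CPM in the Day 4 control and 2.85, 5.23 and 3.14 CPM in the Day 6 control. FRK1 (AT2G19190), a receptor kinase gene used as a marker of flagellin perception, had 10.2, 8.55, 14.4, 11.1 and 8.26 CPM at Day 0, 86.6, 54.0 and 68.1 CPM at Day 2, 16.8, 19.5 and 8.34 CPM in the Day 4 control and 1.38, 2.11 and 2.45 CPM in the Day 6 control. FRK1 thus ended below its Day 0 level in every Day 6 control library. PBS3 (AT5G13320), which makes a conjugate of isochorismate on the way to salicylate, had 3.54, 10.8, 11.6, 9.29 and 6.87 CPM at Day 0, 94.1, 48.9 and 116 CPM at Day 2, 43.6, 44.1 and 24.0 CPM in the Day 4 control and 22.1, 11.9 and 16.2 CPM in the Day 6 control. FRK1 and PBS3 were chosen after their values had been seen.

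The members of the wall and secreted group named here followed a like course, which the choice of members largely fixes. The extensin gene EXT4 (AT1G76930), whose product is a structural glycoprotein of the wall, had 281, 105, 104, 137 and 111 CPM at Day 0, 6074, 2401 and 7095 CPM at Day 2, 1472, 1466 and 1209 CPM in the Day 4 control and 163, 255 and 239 CPM in the Day 6 control. The acyltransferase gene GPAT1 (AT1G06520), which adds fatty acids to glycerol 3-phosphate, had 1.77, 2.98, 5.02, 3.15 and 2.35 CPM at Day 0, 107, 42.4 and 76.2 CPM at Day 2, 3.36, 3.10 and 2.21 CPM in the Day 4 control and 0.688, 0.734 and 0.982 CPM in the Day 6 control. The Day 4 control libraries of GPAT1 thus overlapped those of Day 0, while those of EXT4 all lay above them. Hormone genes included CKX4 (AT4G29740), which breaks down cytokinin, with 1.62, 2.98, 4.07, 3.73 and 5.13 CPM at Day 0, 92.4, 71.9 and 88.1 CPM at Day 2, 27.3, 26.8 and 16.4 CPM in the Day 4 control and 3.93, 4.86 and 4.03 CPM in the Day 6 control. ACS6 (AT4G11280), which makes the precursor of ethylene, had 18.0, 19.5, 20.2, 19.7 and 23.6 CPM at Day 0, 326, 407 and 185 CPM at Day 2, 148, 160.1 and 78.1 CPM in the Day 4 control and 51.4, 47.7 and 50.2 CPM in the Day 6 control.

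Some members of high rank were at or near 0 before culture. AT5G38320, with no known role, had 0, 0.0785, 0, 0 and 0.0870 CPM at Day 0, 32.2, 22.8 and 20.7 CPM at Day 2, 1.77, 1.59 and 0.937 CPM in the Day 4 control and 0.295, 0.367 and 0.196 CPM in the Day 6 control. AT4G19970, of the nucleotide-diphospho-sugar transferase family, had 0, 0.157, 0, 0.0732 and 0.0870 CPM at Day 0, 48.2, 26.9 and 35.7 CPM at Day 2, 7.79, 8.62 and 3.66 CPM in the Day 4 control and 0.884, 1.29 and 0.687 CPM in the Day 6 control. In all, 15 members had at most 3 counts in each Day 0 library, and 0 members were so low in the Day 6 controls. The lipase gene DLAH (AT1G30370), named for its likeness to an enzyme of jasmonate synthesis, had 0.590, 1.10, 1.04, 1.10 and 0.522 CPM at Day 0, 135, 152 and 69.7 CPM at Day 2, 28.2, 28.2 and 23.8 CPM in the Day 4 control and 5.21, 2.85 and 3.83 CPM in the Day 6 control. The carbonic anhydrase gene BCA3 (AT1G23730) had 1.33, 0.628, 1.52, 1.68 and 0.956 CPM at Day 0, 106, 98.1 and 90.6 CPM at Day 2, 17.4, 17.0 and 15.4 CPM in the Day 4 control and 6.19, 7.89 and 9.92 CPM in the Day 6 control. In both, every Day 6 control library lay above every Day 0 library. RLP20 (AT2G25440), a receptor-like protein gene, had 0.590, 0.471, 1.33, 0.146 and 0.348 CPM at Day 0, 45.1, 45.2 and 31.9 CPM at Day 2, 14.1, 12.6 and 8.26 CPM in the Day 4 control and 2.65, 2.66 and 2.45 CPM in the Day 6 control. Other members among the first 20 were AT5G38780, with 36.4, 23.1 and 26.5 CPM at Day 2, AT1G65845, with 142, 59.6 and 212 CPM, and AT1G51850, with 94.7, 50.02 and 71.7 CPM. AZI1 had 1303, 594 and 1622 CPM, the peroxidase gene AT5G64120 4816, 1902 and 6433 CPM and the B-box gene BBX14 (AT1G68520) 45.3, 21.7 and 72.1 CPM at Day 2, with replicate 5 the lowest in all 3.

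Transcription factor genes, here chosen after their values had been seen, showed a range of courses. WRKY72 (AT5G15130), a WRKY factor gene, had 0, 0.0785, 0.0947, 0.220 and 0.0870 CPM at Day 0, 35.9, 17.7 and 45.0 CPM at Day 2, 9.20, 8.96 and 6.64 CPM in the Day 4 control and 2.75, 5.97 and 4.03 CPM in the Day 6 control. WRKY31 (AT4G22070) had 9.73, 5.02, 11.8, 5.56 and 6.00 CPM at Day 0, 150.2, 95.6 and 172 CPM at Day 2, 131, 131 and 103 CPM in the Day 4 control and 28.1, 51.4 and 50.8 CPM in the Day 6 control. WRKY17 (AT2G24570) had 16.8, 16.6, 25.96, 18.6 and 14.4 CPM at Day 0, 107, 83.6 and 69.2 CPM at Day 2, 29.7, 35.6 and 19.8 CPM in the Day 4 control and 20.6, 17.4 and 23.7 CPM in the Day 6 control. All Day 6 control libraries of WRKY72 and WRKY31 thus lay above all Day 0 libraries, while the Day 0 and Day 6 libraries of WRKY17 overlapped in CPM. On the TMM scale WRKY17 differed by log2 1.45 for Day 2 over Day 0 and by -2.40 for Day 6 over Day 2. MYB51 (AT1G18570), an activator of indole glucosinolate genes that entered at rank 196, had 3.98, 1.81, 4.36, 1.98 and 2.09 CPM at Day 0, 42.7, 31.0 and 57.0 CPM at Day 2, 32.3, 34.3 and 21.8 CPM in the Day 4 control and 14.5, 12.9 and 13.3 CPM in the Day 6 control. CBP60G (AT5G26920), an activator of salicylate synthesis, had 37.9, 37.7, 62.9, 43.8 and 39.7 CPM at Day 0, 248, 127 and 253 CPM at Day 2, 58.6, 72.4 and 34.5 CPM in the Day 4 control and 26.5, 21.3 and 24.4 CPM in the Day 6 control, so that its Day 6 libraries lay below all those of Day 0. PRR9, a repressor in the morning loop of the circadian clock, had 16.4, 11.4, 21.7, 14.7 and 15.7 CPM at Day 0, 75.7, 102 and 50.8 CPM at Day 2, 31.1, 28.8 and 22.8 CPM in the Day 4 control and 12.3, 13.2 and 11.4 CPM in the Day 6 control. RVE8 (AT3G09600), an activator in the clock, had 5.75, 4.94, 7.30, 6.07 and 7.39 CPM at Day 0, 28.2, 23.8 and 25.7 CPM at Day 2, 12.6, 13.2 and 11.3 CPM in the Day 4 control and 4.52, 4.50 and 5.69 CPM in the Day 6 control.

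The indole genes stood at a median of 75.6% of their Day 2 mean at Day 4, against 40.5% for all members, but at 15.6% against 18.4% at Day 6, and they differed among themselves. CYP79B2 had 0.147, 0.628, 1.52, 0.659 and 0.348 CPM at Day 0, 569, 443 and 636 CPM at Day 2, 825, 923 and 515 CPM in the Day 4 control and 133, 142 and 142 CPM in the Day 6 control. CYP71A13 had 18.9, 5.34, 8.05, 3.29 and 7.39 CPM at Day 0, 157, 75.0 and 182 CPM at Day 2, 307, 335 and 152 CPM in the Day 4 control and 39.9, 32.3 and 55.0 CPM in the Day 6 control. CYP71A12, the neighbour and close relative of CYP71A13, had 18.3, 7.06, 14.0, 7.10 and 6.96 CPM at Day 0, 823, 620.2 and 612 CPM at Day 2, 381, 426 and 201 CPM in the Day 4 control and 66.2, 57.1 and 84.3 CPM in the Day 6 control. At Day 4 the 3 genes thus parted, with CYP79B2 and CYP71A13 above the Day 2 mean on average and CYP71A12 below it in all. GTR2 (AT5G62680), a transporter of glucosinolates, had 0.147, 0.471, 0.474, 0.366 and 0.261 CPM at Day 0, 82.0, 27.9 and 125 CPM at Day 2, 68.2, 95.8 and 51.5 CPM in the Day 4 control and 11.3, 12.9 and 12.1 CPM in the Day 6 control. Among other enzymes CYP72A14 (AT3G14680) had 21.7, 22.8, 48.4, 27.2 and 30.3 CPM at Day 0, 374, 215 and 358 CPM at Day 2, 156, 173 and 102 CPM in the Day 4 control and 15.5, 30.5 and 26.01 CPM in the Day 6 control, and its Day 0 and Day 6 libraries overlapped in CPM. On the TMM scale CYP72A14 differed by log2 2.58 for Day 2 over Day 0 and by -4.02 for Day 6 over Day 2. The cell wall invertase gene ATBFRUCT1 (AT3G13790), whose product splits sucrose outside the cell, had 114, 86.8, 119, 101 and 96.3 CPM at Day 0, 1399, 815 and 1192 CPM at Day 2, 545, 595 and 330.2 CPM in the Day 4 control and 127, 196 and 189 CPM in the Day 6 control. The amino acid transporter gene LHT1 (AT5G40780) had 10.3, 15.8, 20.8, 13.3 and 16.8 CPM at Day 0, 357, 166 and 364 CPM at Day 2, 211, 188 and 142 CPM in the Day 4 control and 54.7, 68.0 and 80.6 CPM in the Day 6 control. SWEET8 (AT5G40260), a sugar efflux transporter gene, had 0, 0.0785, 0, 0 and 0 CPM at Day 0, 27.4, 118 and 20.4 CPM at Day 2, 30.1, 69.6 and 23.1 CPM in the Day 4 control and 12.9, 8.35 and 6.09 CPM in the Day 6 control, with replicate 5 the highest at Day 2 and at Day 4.

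**Figure D2:**
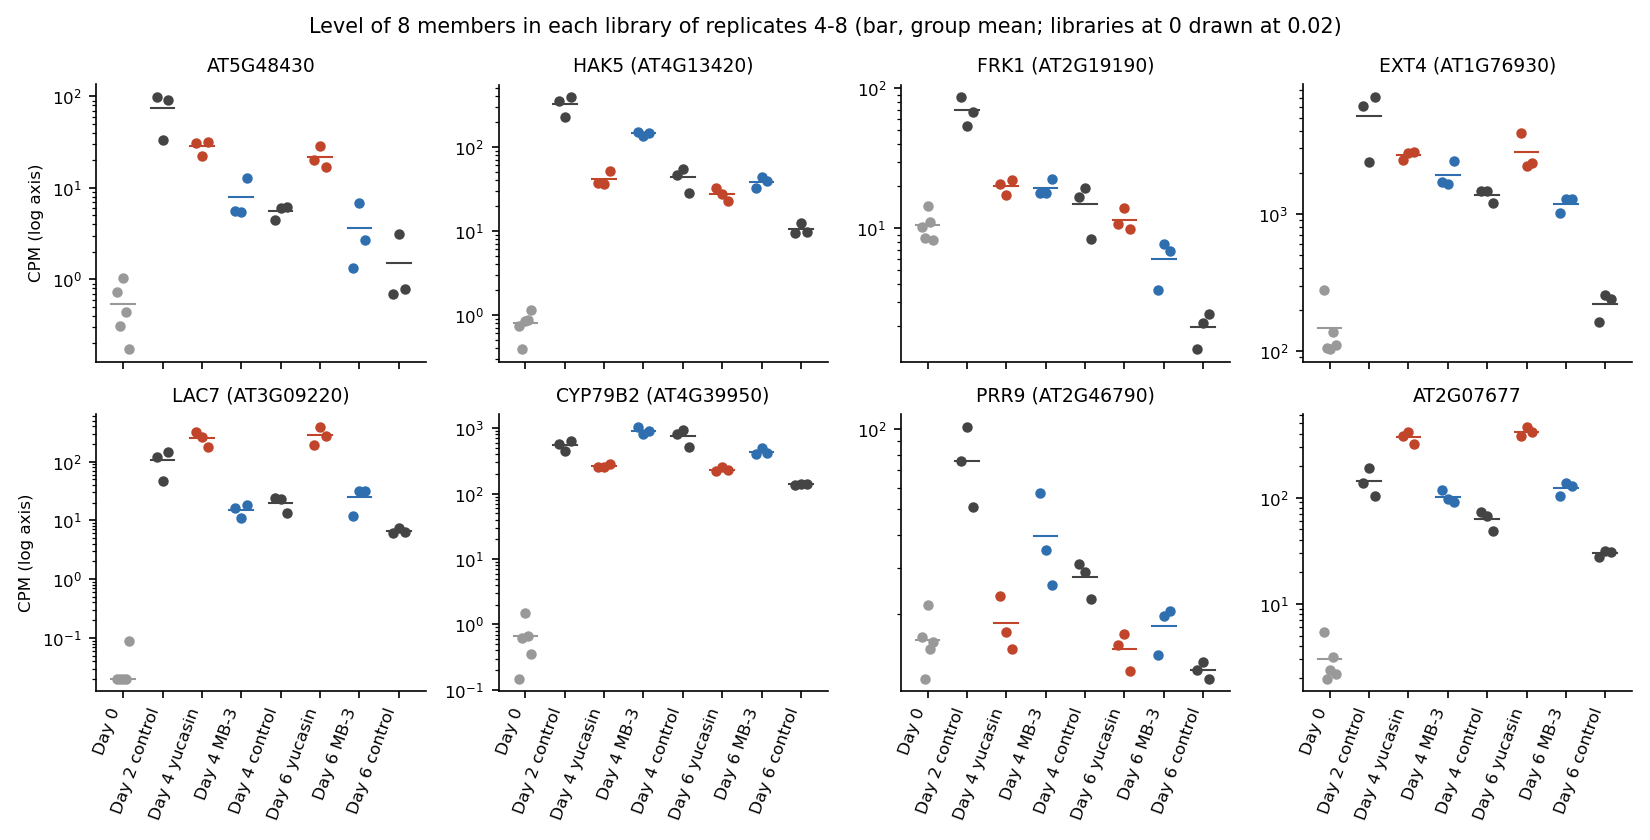
CPM (log axes) of 8 members in each library of replicates 4 to 8, with a bar at the group mean and 1 panel a gene. AT5G48430, HAK5, FRK1 and EXT4 stand highest in the Day 2 libraries, LAC7 and AT2G07677 are higher still under yucasin, and CYP79B2 stands at 825, 923 and 515 CPM in the Day 4 controls.

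Relative to its own Day 2 mean, the median member stood at 9.4% at Day 0, 40.5% in the Day 4 control and 18.4% in the Day 6 control. The groups differed in how low they had been and how long they stayed. Cell wall and secreted proteins stood at 2.8%, 42.0% and 12.4% at Day 0, Day 4 and Day 6, and clock and light genes at 20.8%, 39.7% and 19.0%. Indole, camalexin and glucosinolate genes stood at 5.7% at Day 0, 75.6% in the Day 4 control and 15.6% in the Day 6 control. Receptor-like kinases stood at 15.1%, 31.9% and 12.8%, and cytochromes P450 and detoxifying enzymes at 18.8%, 30.5% and 8.8%. The Day 4 level relative to this Day 2 mean differed between sets of libraries. In the Day 4 control of replicates 9 to 11 the median member stood at 72.7% of the same Day 2 mean. The indole genes stood there at 96.4% and the copies of mitochondrial sequence at 115.1%. Replicates 9 to 11 had no Day 2 library of their own, so a fall from Day 2 was not measured in them.

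**Figure D3:**
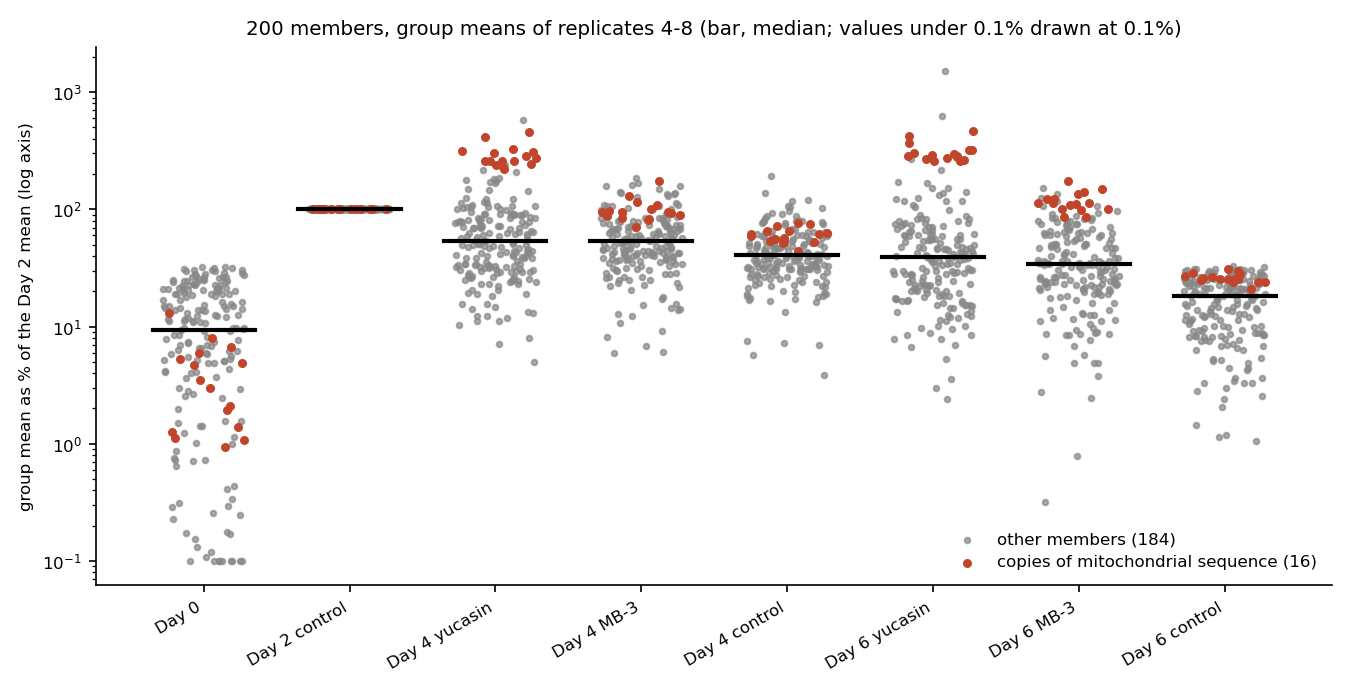
Group mean of each of 200 members as a percentage of its Day 2 mean (log axis), by group of replicates 4 to 8, with a bar at the median and the 16 copies of mitochondrial sequence in red. The median stands at 53.3% (yucasin), 53.4% (MB-3) and 40.5% (control) at Day 4, and to 38.9%, 34.0% and 18.4% at Day 6.

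With yucasin at Day 4, 25 members rose and 2 fell against the Day 4 control (edgeR's quasi-likelihood test, absolute log2 fold change over 2 and Benjamini-Hochberg adjusted p under 0.01). Of all 19043 loci tested, 1.49% rose and 2.12% fell by that rule. At an adjusted p under 0.05 with no limit on size, 86 members rose and 7 fell, against 11.8% of all loci higher and 11.8% lower. The median log2 fold change was 0.57, against -0.01 over all loci, and 143 of 200 members stood above 0. Of the 25, 15 were copies of mitochondrial sequence, and without the copies 10 members rose and 2 fell among 184, with a median of 0.49. In the same comparison 115 of 181 genes of the study's list of G2 and M phase fell and 0 rose, and epidermis markers summed to 8.50 to 11.7 CPM with yucasin against 2.73 to 3.54 CPM in the controls. Their part in the members' levels was not tested.

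Outside the copies, 5 of the 10 rises were genes of wall and secreted proteins, of which 5 of 25 rose and 1 fell. The laccase gene LAC7 (AT3G09220), whose product oxidises phenolics in the wall, had 321, 264 and 178 CPM with yucasin, against 24.1, 23.2 and 13.1 CPM in the controls (log2 fold change 3.81 ± 0.37, adjusted p = 8.67e-08; the error is the standard error of the fit). These levels lay above all 3 Day 2 libraries, which had 122, 47.0 and 148 CPM. AT5G26280, a gene of the TRAF-like family, had 249, 242 and 205 CPM with yucasin, against 12.5, 7.24 and 11.7 CPM in the controls (log2 fold change 4.63 ± 0.60, adjusted p = 1.32e-05). The protease inhibitor gene UPI had 789.7, 777 and 614 CPM with yucasin, against 132, 171 and 79.2 CPM in the controls (log2 fold change 2.66 ± 0.39, adjusted p = 2.32e-05). AT5G48430 rose as well, with 31.0, 22.5 and 31.9 CPM against 4.51, 6.07 and 6.13 CPM (log2 fold change 2.49 ± 0.43, adjusted p = 0.000161), and no library of one group overlapped the other in any of these 4 genes. The other rises outside the copies were BGAL4 (AT5G56870) (2.51 ± 0.32), AT5G38320 (2.39 ± 0.39), AT1G30720 (2.29 ± 0.27), AT5G64120 (2.18 ± 0.39), AT5G38780 (2.18 ± 0.34) and AT3G18250 (2.06 ± 0.29). AT3G18250 was no longer called without yucasin replicate 4 or control replicate 6, and AT5G64120 without control replicate 6.

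The indole genes went the other way. Of these 8 members 7 stood below 0, with a median log2 fold change of -0.46, and 3 had an adjusted p under 0.05. CYP71A13, which acts on indole-3-acetaldoxime, the product of CYP79B2, had 14.3, 9.51 and 9.14 CPM with yucasin, against 307, 335 and 152 CPM in the controls (log2 fold change -4.45 ± 0.48, adjusted p = 3.14e-07). CYP79B2 had 258, 257 and 283 CPM with yucasin, against 825, 923 and 515 CPM in the controls (log2 fold change -1.36 ± 0.22, adjusted p = 0.000102), a change under the limit on size. ESM1 had 2.22, 1.42 and 8.24 CPM against 13.4, 11.4 and 55.3 CPM (log2 fold change -2.61 ± 0.85, adjusted p = 0.0268), and among the alternatives tried was called only with the replicate block. The other called fall was the chitinase gene AT2G43590, with 61.2, 53.7 and 84.6 CPM against 355, 313 and 307 CPM (log2 fold change -2.14 ± 0.34, adjusted p = 5.34e-05).

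In the remaining groups changes were smaller, and none passed the limit on size. At an adjusted p under 0.05, 9 of 23 transporters, 6 of 22 receptor kinases and receptor-like proteins, 4 of 9 P450 and detoxifying enzymes, 4 of 7 clock and light genes, 3 of 11 immune genes and 3 of 4 hormone genes rose and none of these fell. The auxin-conjugating enzyme gene BRU6 (AT4G37390) rose, with 1681, 1678 and 1666 CPM against 585, 624 and 395 CPM (log2 fold change 1.80 ± 0.20, adjusted p = 4.26e-07), as did CKX4 with 53.9, 57.2 and 42.5 CPM against 27.3, 26.8 and 16.4 CPM (log2 fold change 1.27 ± 0.33, adjusted p = 0.0071). The B-box genes BBX14 and BBX15 (AT1G25440) rose by log2 1.69 ± 0.34 and 1.43 ± 0.28. Of the 12 transcription factors 2 rose, with a median of 0.08, among them WRKY29 (AT4G23550) (log2 fold change 1.55 ± 0.34, adjusted p = 0.00195), which had 32.8, 37.2 and 37.5 CPM against 14.0, 14.4 and 12.4 CPM. Of a list of early auxin response genes, which holds BRU6, 9 of 15 rose and 1 fell at that threshold.

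With MB-3 at Day 4, compared with the same controls, 0 members rose and 0 fell by the rule with a limit on size, against 0.0735% of all loci higher and 1.23% lower. At an unadjusted p under 0.05 edgeR gave 84 higher and 8 lower, DESeq2 called 1 member, and edgeR with the replicate number as a block called 2, BGLU18 (AT1G52400) and ESM1, both lower. At an adjusted p under 0.05 with no limit on size, 38 members rose and 2 fell, against 2.64% of all loci higher and 4.55% lower. The median log2 fold change was 0.50, against 0.01 over all loci, and 158 of 200 members stood above 0. All 11 immune genes and 20 of 22 receptor kinases and receptor-like proteins stood above 0, with medians of 0.37 and 0.44. Phloem and bundle sheath markers summed to 4.48 to 8.52 CPM with MB-3 against 21.7 to 30.6 CPM in the controls, and the part of this difference was not tested.

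Of the rises GSTU25, AT5G58840 and HAK5 had the highest fold changes. HAK5 had 152, 136 and 147 CPM with MB-3, against 46.5, 54.9 and 28.1 CPM in the controls (log2 fold change 1.80 ± 0.22, adjusted p = 2.89e-05). With yucasin HAK5 had 36.9, 36.1 and 52.1 CPM (log2 fold change 0.09 ± 0.21, adjusted p = 0.8). The subtilase gene AT5G58840 had 315, 462 and 418 CPM with MB-3, against 98.7, 157 and 83.2 CPM in the controls (log2 fold change 1.87 ± 0.21, adjusted p = 2.41e-05). GSTU25 (AT1G17180), a glutathione transferase gene, had 44.3, 42.9 and 52.2 CPM against 11.3, 17.2 and 9.11 CPM (log2 fold change 1.93 ± 0.30, adjusted p = 0.000211), and the metal-chelate transporter gene YSL3 (AT5G53550) had 23.1, 30.7 and 46.7 CPM against 12.2, 15.8 and 7.92 CPM (log2 fold change 1.53 ± 0.26, adjusted p = 0.000705). In all 4 genes the groups did not overlap. AT1G51830 and CKX4 also rose at this threshold, by log2 1.03 ± 0.24 and 1.14 ± 0.33. The 2 falls were BGLU18, a beta-glucosidase gene, with 3.65, 2.08 and 1.12 CPM against 13.9, 4.55 and 12.9 CPM (log2 fold change -2.10 ± 0.50, adjusted p = 0.0104), and AT1G12030 (log2 fold change -1.79 ± 0.35, adjusted p = 0.0019). CYP79B2 had 1040, 815 and 889.7 CPM with MB-3, and the indole genes as a group had a median of 0.24. CYP83B1, CYP71A13 and ESM1 stood below 0, at log2 -0.24 ± 0.30, -1.05 ± 0.40 and -2.25 ± 0.79 (adjusted p = 0.723, 0.123 and 0.0865). The other indole genes stood above 0.

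**Figure D4:**
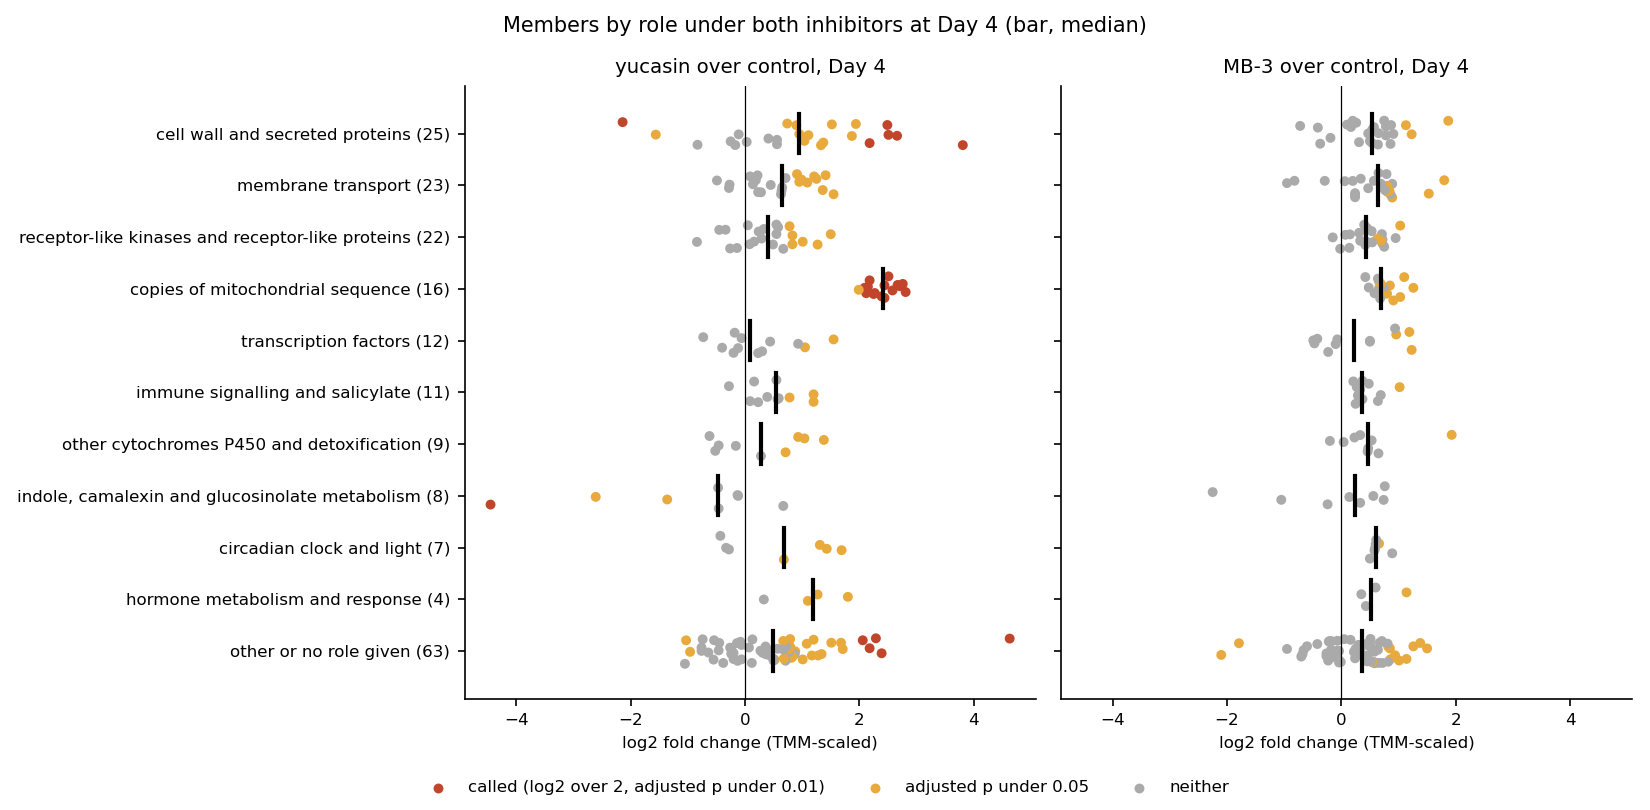
TMM-scaled log2 fold change at Day 4 of each member (points) by role, for yucasin over control (left) and MB-3 over control (right), with a bar at the median of each role. With yucasin the copies centre on 2.41 and the indole genes on -0.46, while with MB-3 no member is called and the medians of all roles lie above 0.

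At Day 6 the members stood higher with either inhibitor than in the control, which is given with no test because the Day 6 control chose the members. The median TMM-scaled log2 difference was 1.86 for yucasin over control (0.01 over all loci), with 191 members above 0 and 147 at 1 or more. For MB-3 over control it was 1.38 (-0.02 over all loci), with 182 above 0 and 123 at 1 or more. Relative to Day 2, the median member stood at 38.9% with yucasin, 34.0% with MB-3 and 18.4% in the control. EXT4 had 3863, 2236 and 2365 CPM with yucasin, 1012, 1275 and 1275 CPM with MB-3 and 163, 255 and 239 CPM in the control. FRK1 had 10.7, 13.9 and 9.96 CPM with yucasin, 3.60, 7.76 and 6.85 CPM with MB-3 and 1.38, 2.11 and 2.45 CPM in the control. CKX4 had 29.3, 74.4 and 64.7 CPM with yucasin, 15.4, 58.7 and 42.1 CPM with MB-3 and 3.93, 4.86 and 4.03 CPM in the control. In these 3 genes each inhibitor library lay above each control library. BGLU18 was an exception, with 0.341, 1.18 and 1.87 CPM with yucasin, 0.190, 0 and 0.167 CPM with MB-3 and 14.9, 8.08 and 11.2 CPM in the control.

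Yucasin was then compared with MB-3 at Day 6, a contrast that uses no library of the choice. With yucasin 13 members were higher and 0 lower, against 3.29% of all loci higher and 1.22% lower. At an unadjusted p under 0.05 edgeR gave 12 lower, and DESeq2 called 0 lower. At an adjusted p under 0.05, 92 were higher and 8 lower, against 22.1% and 19.1% of all loci. AT5G26280 differed most, with 417, 742 and 634 CPM with yucasin, against 5.31, 34.9 and 26.9 CPM with MB-3 (log2 fold change 5.08 ± 0.61, adjusted p = 2.89e-06). LAC7 had 195, 390 and 273 CPM with yucasin, against 12.0, 31.8 and 31.7 CPM with MB-3 (log2 fold change 3.86 ± 0.37, adjusted p = 8.51e-08). Of the wall and secreted genes called higher with yucasin at Day 4, LAC7, UPI (2.90 ± 0.39) and AT5G48430 (2.94 ± 0.47), were also higher with yucasin at Day 6. The others outside the copies were AT5G38320 (3.32 ± 0.47), the RING-type gene AT3G61390 (2.83 ± 0.38), the ATPase gene AT3G22910 (2.64 ± 0.36), the lipase gene DLAH (2.50 ± 0.38), CYP71B7 (AT1G13110) (2.44 ± 0.28) and AT1G26390 (2.11 ± 0.30), the last not called without MB-3 replicate 6. Without the copies 10 were higher. Guard cell markers summed to 47.5 to 57.3 CPM with yucasin and 10.1 to 18.8 CPM with MB-3, and their part was not tested.

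From Day 4 to Day 6 with yucasin, 1 member was higher and 3 lower at Day 6, against 2.25% of all loci higher and 0.0945% lower, and at an adjusted p under 0.05 the counts were 10 and 37, against 12.2% and 7.14%. The median was -0.22, against -0.02 over all loci. CYP83B1 (AT4G31500), an enzyme of indole glucosinolates, had 50.7, 49.0 and 54.2 CPM at Day 6 and 246, 174 and 372 CPM at Day 4 (log2 fold change -2.16 ± 0.31, adjusted p = 2.23e-05). BBX14 had 7.05, 11.0 and 7.35 CPM at Day 6 and 46.8, 30.4 and 50.1 CPM at Day 4 (log2 fold change -2.12 ± 0.36, adjusted p = 0.000154), and the polyol transporter gene PMT6 (AT4G36670) fell likewise (log2 fold change -2.25 ± 0.31, adjusted p = 1.37e-05). These 3 were not called without Day 4 yucasin replicate 6. GSTU25 was higher at Day 6, with 96.6, 90.1 and 67.7 CPM against 18.5, 25.3 and 26.1 CPM (log2 fold change 2.07 ± 0.30, adjusted p = 1.93e-05), but not without Day 4 yucasin replicate 4 or Day 6 yucasin replicate 6.

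With MB-3, 0 members were higher and 8 lower at Day 6 than at Day 4, against 1.26% of all loci higher and 0.341% lower. At an unadjusted p under 0.05 edgeR gave 5 higher, and DESeq2 called 0 higher.  At an adjusted p under 0.05, 2 members were higher and 78 lower, against 5.68% and 5.3% of all loci. The median was -0.71, against 0.01 over all loci, and 169 of 200 members stood below 0. All 22 receptor kinases and receptor-like proteins stood below 0 with a median of -0.98, and 14 of them fell at that threshold. All 11 immune genes (median -0.99, 8 fell) and all 8 indole genes (median -1.12, 6 fell) did so too. DLAH had 3.41, 2.80 and 3.59 CPM at Day 6 and 34.8, 16.4 and 13.0 CPM at Day 4 (log2 fold change -2.79 ± 0.37, adjusted p = 3.4e-05), and AT5G25260, of the SPFH family of membrane scaffold proteins, had 2.47, 1.78 and 2.76 CPM at Day 6 and 13.0, 8.80 and 16.1 CPM at Day 4 (log2 fold change -2.49 ± 0.44, adjusted p = 0.000574). The others called were AT3G61390 (-2.46 ± 0.37), AT4G33840 (-2.25 ± 0.47), the methyltransferase gene FAMT (AT3G44860) (-2.22 ± 0.36), AT2G38790, whose sequence is shared with a neighbour (-2.13 ± 0.40), AT1G10340 (-2.08 ± 0.19) and the GRAS factor gene AT3G46600 (-2.06 ± 0.44). With the replicate block, which only replicate 6 informs across these days, AT2G38790, AT3G46600, AT3G61390 and AT4G33840 were no longer called (log2 -1.86, -1.46, -1.88 and -1.29), while AZI1, CRK22, ESM1 and HAK5 were. The count was 15 without Day 4 MB-3 replicate 6, and 5 without Day 6 MB-3 replicate 6 or replicate 8. Whether the course differed between the inhibitors was not tested.

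The 16 copies moved together. Their levels summed to 187 ± 31.9 CPM at Day 0 (SD, n = 5), 2552 ± 697 CPM at Day 2, 1540 ± 238 CPM in the Day 4 control and 679.8 ± 67.0 CPM in the Day 6 control (SD, n = 3 each). The 121 loci of the mitochondrial genome summed to 387 ± 40.3, 6233 ± 878, 5818 ± 708 and 3137 ± 55.8 CPM over the same groups. At Day 4 the copies summed to 7640 ± 1721 CPM with yucasin, 2606 ± 260 CPM with MB-3 and 1540 ± 238 CPM in the control, and the mitochondrial loci to 18170 ± 2702, 7485 ± 934 and 5818 ± 708 CPM. At Day 6 the copies summed to 8350 ± 1241 CPM with yucasin, 3158 ± 783 CPM with MB-3 and 679.8 ± 67.0 CPM in the control, and the mitochondrial loci to 20400 ± 985, 8918 ± 2614 and 3137 ± 55.8 CPM. The copies and the mitochondrial loci thus stood in the same order over the treatments. AT2G07677, which stands for the copies in the plot of 8 members, had 379, 418 and 321 CPM with yucasin, against 73.2, 67.2 and 48.9 CPM in the Day 4 controls (log2 fold change 2.71 ± 0.26, adjusted p = 8.22e-08). The copies were 2.09 to 2.81 on the log2 scale in the 15 that rose at Day 4 with yucasin, and 1.99 in AT2G07695, which did not pass the limit. Of the 15, AT2G07599, AT2G07689 and AT2G07707 each lost the call when 1 library was left out. For stretches without a difference, which genome the reads came from cannot be told apart from these counts.

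**Figure D5:**
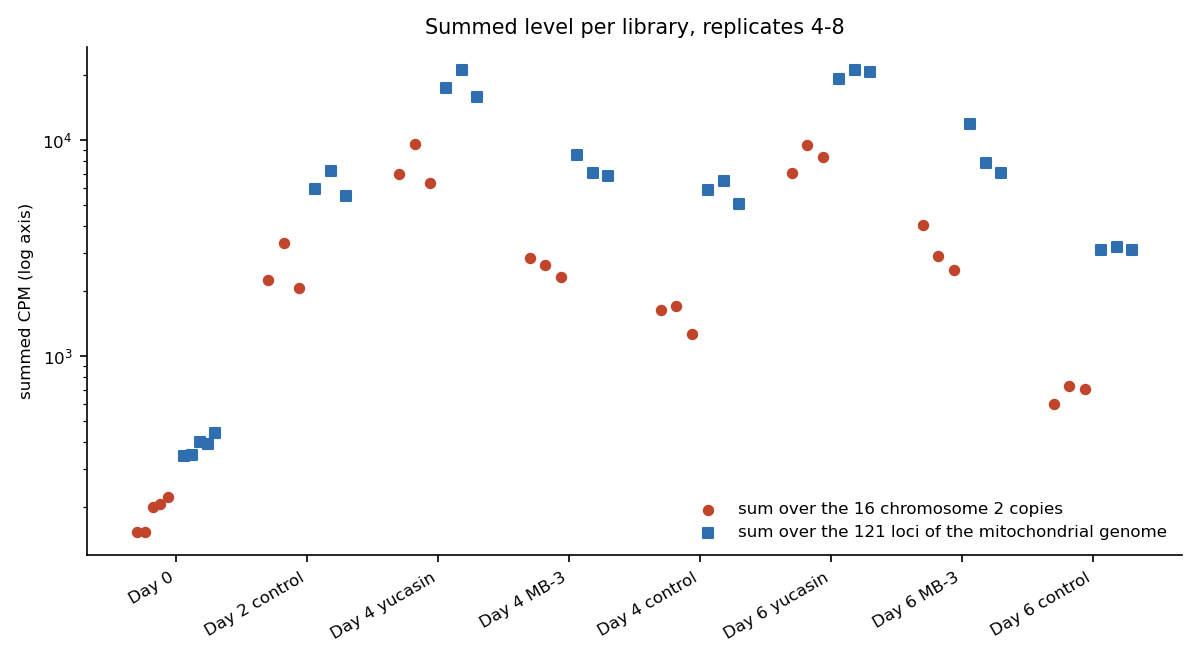
Summed CPM (log axis) of the 16 copies on chromosome 2 (circles) and of the 121 loci of the mitochondrial genome (squares) in each library of replicates 4 to 8. Both are lowest at Day 0 and highest with yucasin, where the copies average 7640 CPM at Day 4 and 8350 CPM at Day 6.

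Replicates 9 to 11 gave a test of the rise in libraries that had no part in the choice. At Day 4 in the control medium 101 members rose and 1 fell against Day 0, against 24.0% of all 17665 loci higher and 11.1% lower, and the groups did not overlap in any of the 102. The median log2 fold change was 2.13, against 0.33 over all loci. With scaling by total counts 131 rose and 0 fell. Of the 25 wall and secreted genes 15 rose, of the transporters 13 of 23, of the indole genes 6 of 8, of the immune genes 4 of 11 and of the receptor kinases and receptor-like proteins 4 of 22. The lipid-transfer gene AT4G12500 had 1781, 1482 and 1785 CPM at Day 4 and 0 counts in every Day 0 library, at least 4791-fold higher against a floor of 3 counts a library. The dirigent gene DIR6 (AT4G23690), with 64.7, 142 and 133 CPM, was at least 322.5-fold higher, and LAC7, with 50.2, 115 and 138 CPM, at least 287.5-fold higher. Of the 101, 21 had at most 3 counts in each Day 0 library. BGLU18 was the fall, with 8.16, 6.26 and 7.46 CPM at Day 4 and 33.0, 28.9 and 16.7 CPM at Day 0 (log2 fold change -2.90 ± 0.30, adjusted p = 1.6e-05).

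Without 2,4-D at Day 4, 3 members rose and 3 fell against the complete medium, against 0.759% of all loci higher and 2.63% lower. At an adjusted p under 0.05 the counts were 52 and 7, against 10.1% and 12.2%, and the median was 0.84, against 0.02 over all loci, with 165 of 200 members above 0. With the replicate number as a block 3 rose and 6 fell. BRU6 fell, with 91.1, 44.7 and 51.8 CPM without 2,4-D, against 796, 1002 and 1072 CPM with it (log2 fold change -3.64 ± 0.34, adjusted p = 0.000205). DGR2 (AT5G25460), of a family of wall proteins, had 20.1, 20.1 and 21.1 CPM without 2,4-D, against 119, 146 and 111 CPM with it (log2 fold change -2.32 ± 0.19, adjusted p = 0.000128), and the subtilase gene AT5G58840 fell as well (log2 fold change -2.04 ± 0.28, adjusted p = 0.00152). Of the list of early auxin response genes, which holds BRU6, 10 of 14 fell and 0 rose, with a median of -3.79. LAC7 rose, with 374, 561 and 557 CPM without 2,4-D, against 50.2, 115 and 138 CPM with it (log2 fold change 2.59 ± 0.40, adjusted p = 0.00467). The acyltransferase gene AT5G47980 rose by log2 2.75 ± 0.34 and the sugar transporter gene AT3G05400 by 2.71 ± 0.50. The copies summed to 5682 ± 381 CPM without 2,4-D, against 3585 ± 1421 CPM with it (SD, n = 3 each), and 10 of 16 rose at an adjusted p under 0.05. Phloem and bundle sheath markers summed to 0.118 to 0.843 CPM without 2,4-D, against 4.51 to 18.2 CPM with it, and the part of this difference was not tested.

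Replicate 9 without 2,4-D differed from replicates 10 and 11. CYP79B2 had 2091, 127 and 145 CPM and the peroxidase gene AT5G64120 8303, 1474 and 1445 CPM in replicates 9, 10 and 11. EARLI1 had 3152, 667 and 966 CPM in the same order. Without replicate 9 of that group 10 members rose and 9 fell, and AT5G58840 was no longer called. AT3G05400 lost its call without any one of the control replicates or without replicate 10 or 11 of the group without 2,4-D, and LAC7 without control replicate 10 or without replicate 10 or 11.

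In replicates 1 to 3, 42 of 198 members rose and 37 fell at Day 14 against Day 0, against 20.5% of all 20205 loci higher and 13.5% lower, with a median of 0.09 against 0.29 over all loci. With scaling by total counts 80 rose and 14 fell. Among the wall and secreted genes 9 rose and 4 fell, and among the indole genes 4 rose and 1 fell. DIR6 had 38.9, 39.1 and 39.6 CPM at Day 14 and 0, 0.156 and 0 CPM at Day 0, at least 83.63-fold higher. LAC7 and the sugar transporter gene SWEET8 were at least 37.85-fold and 32.65-fold higher. AT5G64120 fell, with 40.4, 33.6 and 13.0 CPM at Day 14 and 345, 372 and 280.2 CPM at Day 0 (log2 fold change -4.81 ± 0.66, adjusted p = 2.59e-05), as did the oxidoreductase gene SQP1 (AT5G24150) (-7.05 ± 0.74) and the resistance gene RLM3 (AT4G16990) (-6.40 ± 0.64). With MB-3 at Day 14, 50 of 198 members stood above and 58 below the Day 14 control in every library, against 20.7% and 25.2% of all loci. BGLU18 had 0, 0.462 and 0 CPM with MB-3 at Day 14, against 584, 609 and 729.7 CPM in the Day 14 control.

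Freshly isolated protoplasts were also compared with intact leaf. Epidermis markers summed to 165 to 259 CPM in leaf and to 0.677 to 1.2 CPM at Day 0 of replicates 1 to 3. Phloem and bundle sheath markers summed to 390.0 to 541 CPM and to 1.9 to 3.28 CPM. The part of these cell types in the differences below was not tested. The paper, writing of chloroplast genes, gives such cell types in leaf as its reason to make no quantitative comparison. At Day 0, 43 of 198 members stood higher and 32 lower than in leaf by the test with a limit on size, against 11.7% of all loci higher and 22.4% lower, so that in total the members were called about as often as all loci, with a median of 0.22 against -0.56 over all loci. With scaling by total counts 33 stood higher and 50 lower. EXT4 had 322, 233 and 146 CPM at Day 0 and 0.623, 1.11 and 0.532 CPM in leaf (log2 fold change 9.34 ± 0.62, adjusted p = 7.95e-08). The peroxidase gene AT5G39580 had 151, 309 and 106 CPM at Day 0 and 0.498, 0.889 and 0.799 CPM in leaf (log2 fold change 9.00 ± 0.68, adjusted p = 2.03e-07), and BRU6 had 234, 337 and 231 CPM and 1.99, 5.78 and 2.13 CPM in these groups (log2 fold change 7.44 ± 0.38, adjusted p = 1.81e-08). Of the wall and secreted genes 9 stood higher and 3 lower. In the other direction the glucosinolate transporter gene GTR2 had 0.135, 0.469 and 1.05 CPM at Day 0 and 203, 213 and 118 CPM in leaf (log2 fold change -7.30 ± 0.46, adjusted p = 5.31e-08). BBX14 had 1.35, 0.625 and 1.20 CPM at Day 0 and 402, 179 and 345 CPM in leaf (log2 fold change -7.16 ± 0.85, adjusted p = 8.2e-06), and BBX15 differed by -6.99 ± 0.41. Of all members, 31 had a leaf mean above their Day 2 mean and 88 had at least 20 CPM in leaf. Clock and light genes stood in leaf at a median of 215.1% of their Day 2 mean, indole genes at 102.4%, and wall and secreted genes at 1.6%.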

How the data were processed

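RNA from 47 samples was sequenced as stranded messenger RNA libraries and aligned with Bowtie 0.12.9 to TAIR10, per the labels. The deposited files hold whole-number read counts per splice variant, and the authors applied no normalization to them. The counting tool, the use of strand and the handling of reads that match several places are not given in the sources used here. The lowest-numbered variant of each of 28197 loci was used.

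Levels are CPM of the summed counts of a library. Fold changes come from edgeR 4.0.16 (R 4.3.3), with the quasi-likelihood test, TMM scaling, filterByExpr and 1 fit over all groups of replicates 1 to 3, 4 to 8 or 9 to 11. A gene was called at an absolute log2 fold change over 2, p under 0.01 and Benjamini-Hochberg adjusted p under 0.01 over all loci tested. On simulated data 198 of 200 genes changed 8-fold were recovered among 19043 loci, with 0 false calls. The counts were simulated from the dispersions of the same fit, and loci of low level in the Day 4 control were not among those changed. Changes near the limit on size and genes of low counts were therefore not covered. TMM factors were 0.49 to 0.67 at Day 0 of replicates 4 to 8 and 0.91 to 1.39 in cultured protoplasts. Ratios of culture over Day 0 are therefore higher in CPM than on the TMM scale, and overlaps of libraries are given in CPM.

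The members and the gene lists were chosen with earlier results of these data known. Named genes were the 20 of highest rank, up to 3 rises and 3 falls a comparison among called members whose groups do not overlap, up to 4 members of each list and family, and the loci around rank 200. Any other gene named was chosen after its values had been seen. Roles were assigned by hand from the RefSeq product names. Symbols, promoters and coordinates are those of TAIR10.1 in RefSeq, in which all 200 members were found.

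Replicate numbers were taken as paired where the deviations of same-numbered libraries from their group means correlated above 0.1 in every pair. This held for yucasin against control (0.14 to 0.36) and MB-3 against control (0.18 to 0.41) at Day 4, yucasin against MB-3 at Day 6 (0.24 to 0.30) and the medium without 2,4-D (0.25 to 0.54). The pairing rests on these correlations, since the labels give only a number. Fold changes, errors and p-values come from fits with no term for the replicate, except where the replicate block is named. The block was used only as an alternative. No pair of libraries of 1 group agreed within sampling noise (lowest chi-square per degree of freedom 4.32 of 52 pairs).

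Alternatives were scaling by total counts, no filter, the replicate block, counts summed over variants, DESeq2 1.42.0, the adjusted p alone and leaving out each library. Leaving out the mitochondrial copies was added after seeing the data.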

Additional observations from a re-analysis of the deposited data

Results flagged for a closer look

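In at least 4 members 1 of the 5 Day 0 libraries of replicates 4 to 8 stood far from the others by Dixon's test. Chance gives this in about 1 in 20 groups. The 4 are examples and not a full count, since CBP60G also had 1 Day 0 library, replicate 6, well above the others. EXT4 had 280.6 CPM in replicate 4, with a median of 110.9 CPM, and CYP71B7 had 29.33 CPM in replicate 4, with a median of 18.95 CPM. GSTU25 had 7.011 CPM in replicate 6, with a median of 3.684 CPM, and AT5G39580 had 200.1 CPM in replicate 6, with a median of 118.9 CPM. All 4 are high values and lie below every Day 2 library of the same gene.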

How the results depend on the processing

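Under the adjusted p alone the members called came to 93 for yucasin and 40 for MB-3 against control at Day 4, 100 for yucasin against MB-3 at Day 6, 47 and 80 for Day 6 against Day 4 with yucasin and with MB-3, 59 without 2,4-D, 123 for Day 14 and 114 for Day 0 against leaf. The count for MB-3 at Day 4, 0 by the rule with a limit on size, was 1 with scaling by total counts, 1 with no filter, 1 with summed variants, 1 with DESeq2 and 2 with the replicate block, all lower. Without 2,4-D DESeq2 called 10. Yucasin at Day 4 called 12 members without the copies.

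With the replicate block the counts higher and lower were 25 and 3 for yucasin at Day 4, 16 and 0 for yucasin against MB-3 at Day 6, 1 and 4 for Day 6 against Day 4 with yucasin, 0 and 8 with MB-3, of which 4 were among the 8 called without the block, and 3 and 6 without 2,4-D. In the unpaired contrasts they were 99 and 1 for Day 4 against Day 0, 42 and 40 for Day 14 and 44 and 32 for Day 0 against leaf.

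Leaving out 1 library gave 23 to 29 calls for yucasin and 0 to 3 for MB-3 at Day 4, 13 to 18 for yucasin against MB-3 at Day 6, 2 to 5 and 5 to 15 for Day 6 against Day 4 with yucasin and with MB-3, 91 to 106 for Day 4 against Day 0, 4 to 19 without 2,4-D, 70 to 78 for Day 14 and 72 to 80 for Day 0 against leaf. The 3 calls for MB-3 at Day 4 came without control replicate 5, and the 2 for yucasin at Day 6 against Day 4 without Day 4 yucasin replicate 6.

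The rule found 131 of the members again with a minimum of 50 CPM and 170 to 200 with 1 library left out, 170 without Day 2 replicate 6. With TMM scaling in the rule it found 155, with a pseudocount of 5 CPM 182, with summed variants 183 and with CPM of nuclear counts 195. Over 80 tests of single members, 54 alternatives took a call away, 9 added one and 0 reversed a direction. Groups of 3 libraries limit all of these counts, and members with at most 3 counts at Day 0 allow only a lower bound of the fold.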
